A study of Mus musculus with 80 samples.

Results

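The genes described here encode digestive enzymes of the exocrine pancreas. They are Prss2, Ctrb1, Cela1, Cela2a, Cpa1, Cpb1, Cel and Pnlip, 8 in all, and their levels were followed through brain, heart, kidney, liver and lung. They were taken as a list of names, and each was read from the probe set that the platform annotation assigns to that gene alone. Of the 8 genes, 7 had such a probe set, 1 each, among the 17097 genes measured, and Pnlip is named only. The arrays came from a study of mice lacking serum carboxylesterase, the plasma enzyme encoded by Ces1c and called Es-1 in the labels, which was examined as a model for nerve agent intoxication. Knockout (KO) and wild-type (WT) mice of both sexes were used, all on a C57BL/6 background and all untreated. RNA extracted from frozen tissue was measured on 80 arrays (Affymetrix HT MG-430 PM), in 20 groups of 4 by genotype, sex and tissue. There were thus 16 arrays per tissue, 8 of each genotype, from 23 animals (12 KO and 11 WT). Ages, the construct of the knockout allele and whether the WT mice were littermates are not given in the sources used here.

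Acinar cells of the pancreas make most of these enzymes as inactive precursors, store them in zymogen granules and release them into the duct that leads to the small intestine. Trypsin, once cut from its precursor, activates the others, among them chymotrypsin, the elastases and the carboxypeptidases. Transcription of this program in acinar cells depends on PTF1, a complex of Ptf1a with an RBPJ-type protein, together with Bhlha15 and Nr5a2. None of the 5 organs studied here contains pancreas, which lies beside the liver, stomach, spleen and small intestine in the mouse abdomen.

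The windows of 250 bases before the gene start are shown for the members in which both of 2 short motifs like those that PTF1 binds were found, and for Cela1, the member whose levels over the organs were unlike the rest. Capitals mark CACCTG, which is an E-box, and TTTCCCA, known as the TC-box, each on either strand, so that they also appear as CAGGTG and TGGGAAA. The sequences are from RefSeq (GRCm38.p6), which held a window for all 8 genes, and read 5′ to 3′ on the strand of the gene. The window of Prss2 is chr6:41521526-41521775 on the + strand, that of Cel is chr2:28563404-28563653 on the - strand, that of Cela2a is chr4:141826006-141826255 on the - strand, and that of Cela1 is chr15:100687921-100688170 on the - strand.
Prss2: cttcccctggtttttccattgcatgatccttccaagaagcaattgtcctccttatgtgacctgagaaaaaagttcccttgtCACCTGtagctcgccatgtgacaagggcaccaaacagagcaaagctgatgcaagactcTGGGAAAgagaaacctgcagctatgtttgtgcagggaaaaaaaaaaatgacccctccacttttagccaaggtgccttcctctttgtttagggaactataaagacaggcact
Cel: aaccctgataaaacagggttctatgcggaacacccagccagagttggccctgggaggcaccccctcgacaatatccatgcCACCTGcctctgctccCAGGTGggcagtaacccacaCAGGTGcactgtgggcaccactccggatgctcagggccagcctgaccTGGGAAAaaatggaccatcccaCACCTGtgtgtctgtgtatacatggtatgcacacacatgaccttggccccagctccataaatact
Cela2a: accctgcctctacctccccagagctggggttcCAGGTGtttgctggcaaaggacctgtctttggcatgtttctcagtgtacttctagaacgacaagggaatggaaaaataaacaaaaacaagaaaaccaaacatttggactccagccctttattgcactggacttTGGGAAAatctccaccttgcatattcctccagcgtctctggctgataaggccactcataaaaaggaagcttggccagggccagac
Cela1: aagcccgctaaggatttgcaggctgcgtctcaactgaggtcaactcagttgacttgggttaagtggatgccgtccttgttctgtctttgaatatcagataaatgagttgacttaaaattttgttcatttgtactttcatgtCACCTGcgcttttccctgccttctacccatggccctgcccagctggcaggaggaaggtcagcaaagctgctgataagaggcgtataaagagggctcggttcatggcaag
The Cel window held 4 copies of CACCTG, and the windows of Prss2, Cela2a and Cela1 held 1 each. Of the 8 windows, 5 held CACCTG, 5 held TTTCCCA and 3 held both. Among all 32851 RefSeq windows of this kind the shares were 17.2%, 6.82% and 1.17%. The search set no spacing between them. Counted back from the gene start, the motifs began at -169 and -111 in Prss2 and at -218 and -85 in Cela2a. In Cel, TTTCCCA began at -87, with copies of CACCTG on both sides of it. The nearest of these copies lay closer to it than the motifs lay to each other in Prss2 or Cela2a. Whether any of these pairs forms 1 joined site was not tested. A match describes these letters and does not show a bound site.

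Values are the deposited log2 expression of a probe set, and a difference of 1 is a doubling. The array medians lay between 3.93 and 4.21, and no detection call was used, so a level near or below 4 could not be told apart from background. Levels of different genes are not compared with each other. Some libraries stood apart. The marker list of the labelled tissue was the highest of the 5 tissue lists in 80 of 80 arrays, and so also in the array titled as heart of KO female 994, for which another label gives lung. In the liver, Ces1c lay between 12.11 and 12.63 in WT and between 9.70 and 10.17 in 7 of the 8 KO libraries, while the library labelled KO male 952 was at 12.04. The liver library of KO female 994 correlated with the median liver at r = 0.962 over genes, against 0.989 to 0.994 in the other 15, and 1329 of its genes lay over 1 log2 unit above the liver median. Results that rest on these libraries are given with and without them where such a fit was run.

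The acinar enzymes were near background in brain, heart, kidney and lung, with the exception of Cela1, and lay far above it in single livers. In 3 of the 16 livers, all WT, 6 of the 7 measured genes stood 2.91 to 5.99 log2 units above the liver median. The 3 livers were picked by these same genes. Their distance from the other livers, given gene by gene below, is therefore a description and not a test. In the other organs of the same 3 animals none of the 7 genes stood over 1 log2 unit above the median of that tissue. The liver of WT male 1262 was the highest for 5 of these 6 genes, that of WT female 1264 was close to it, and that of WT female 876 was lower.

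**Figure D1:**
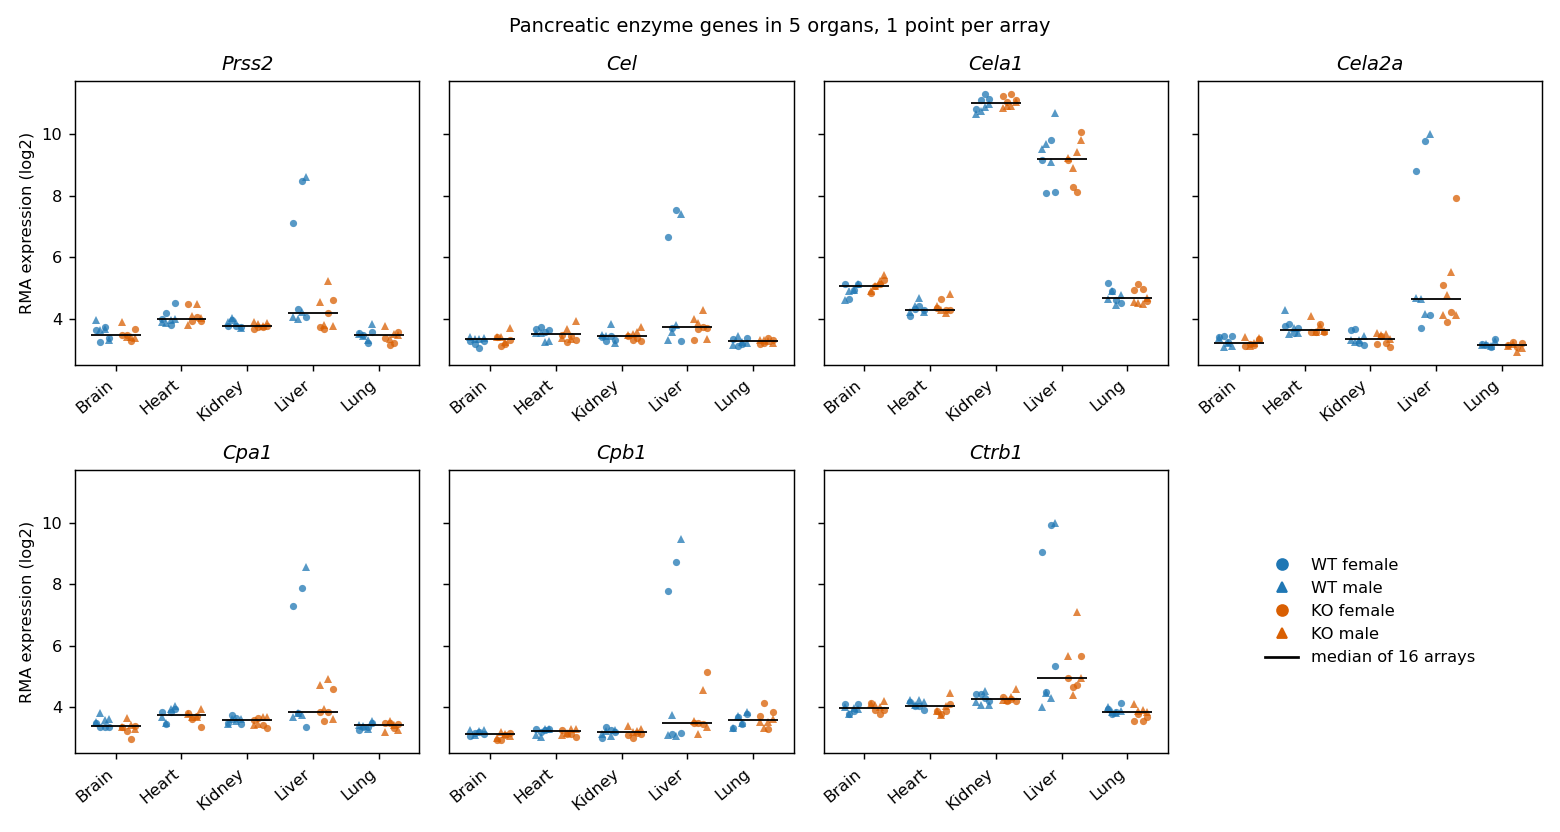
Levels of 7 pancreatic enzyme genes (RMA expression, log2) in each organ, 1 point per array, WT in blue and KO in orange, females as circles and males as triangles, with a line at the median of 16 arrays. In liver, the 3 highest points are WT for every gene but Cela1, and for Cela2a a KO liver at 7.91 comes next after the lowest of them at 8.79, while Cela1 is high in every kidney and every liver.

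Prss2 encodes an anionic trypsinogen, the precursor of the protease that activates the other zymogens (chr6:41521776-41525079). Its liver levels were 8.60 in WT male 1262, 8.47 in WT female 1264 and 7.11 in WT female 876. In the other 5 WT livers they were 3.99 to 4.32, and in the 8 KO livers 3.65 to 5.23 with a median of 3.99, the highest being KO male 964. The 3 high libraries lay outside the range of the remaining 13. Mouse trypsinogens form a family of near-identical copies, so the signal of this probe set may be shared with other members of that family.

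Ctrb1 encodes chymotrypsinogen B (chr8:111686510-111691010). Its liver levels were 10.00 in WT male 1262, 9.93 in WT female 1264 and 9.03 in WT female 876, against 4.03 to 5.36 in the other WT livers. KO livers lay between 4.41 and 7.09 with a median of 4.96, and KO male 964 held the highest. Here too the 3 high WT livers did not overlap with any other liver.

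Cela2a encodes an elastase of the pancreatic juice (chr4:141814954-141826005). Its liver levels were 10.00 in WT male 1262, 9.76 in WT female 1264 and 8.79 in WT female 876, against 3.71 to 4.66 in the other WT livers. KO female 994 was at 7.91, and the other 7 KO livers were between 3.88 and 5.53. The 3 high WT livers were again above all others, and the next in order was KO female 994, the library that stood apart over many genes.

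The carboxypeptidases remove the last amino acid at the carboxyl end of a peptide, Cpa1 an aliphatic or aromatic residue and Cpb1 a basic one. Cpa1 (chr6:30639218-30645361) was at 8.56, 7.88 and 7.29 in the livers of WT male 1262, WT female 1264 and WT female 876. It lay between 3.36 and 3.82 in the other WT livers and between 3.56 and 4.92 in KO livers. Cpb1 (chr3:20249479-20275733) was at 9.48, 8.72 and 7.78 in the same 3 livers, between 3.07 and 3.76 in the other WT livers and between 3.15 and 5.14 in KO livers. For both genes the 3 livers stood clear of all others, and Cpb1 had the widest span of the 7, with its highest liver 85.0-fold above its lowest.

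Cel encodes carboxyl ester lipase, the bile-salt-stimulated enzyme that splits cholesteryl esters and other lipids (chr2:28555819-28563403). Its liver levels were 7.54 in WT female 1264, 7.40 in WT male 1262 and 6.66 in WT female 876. The other WT livers were at 3.27 to 3.80 and the KO livers at 3.31 to 4.27, with no overlap with the 3. This was the 1 gene of the 6 for which WT female 1264 exceeded WT male 1262.

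Cela1, an elastase that is also made outside the pancreas, had another pattern (chr15:100674422-100687920). Its liver levels ranged from 8.08 in WT female 936 to 10.67 in WT male 1262, with a median of 9.20. WT female 1264 was at 9.81 and WT female 876 at 9.16, both within the range of the remaining 13 livers, 8.08 to 10.08. Only WT male 1262 lay over 1 log2 unit above the liver median of this gene.

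Counted per library, a margin of 1 log2 unit above the liver median was passed by 7 of the 7 genes in WT male 1262, where 0.31% of all genes passed it. It was passed by 6 of 7 in WT female 1264 (0.965% of all genes) and by 6 of 7 in WT female 876 (0.602%). KO male 964 had 4 of 7 (0.398%), which were Prss2, Cpa1, Cpb1 and Ctrb1. KO female 994 had 2 of 7, Cela2a and Cpb1, against 7.77% of all genes in that library. In the other 11 livers 0 of 7 passed, where 0.257% to 1.47% of all genes did. In the 64 arrays of the other organs none of the 7 passed the same margin above its own tissue median, the highest deviation being 0.63 for Cela2a in the heart of WT male 901.

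**Figure D2:**
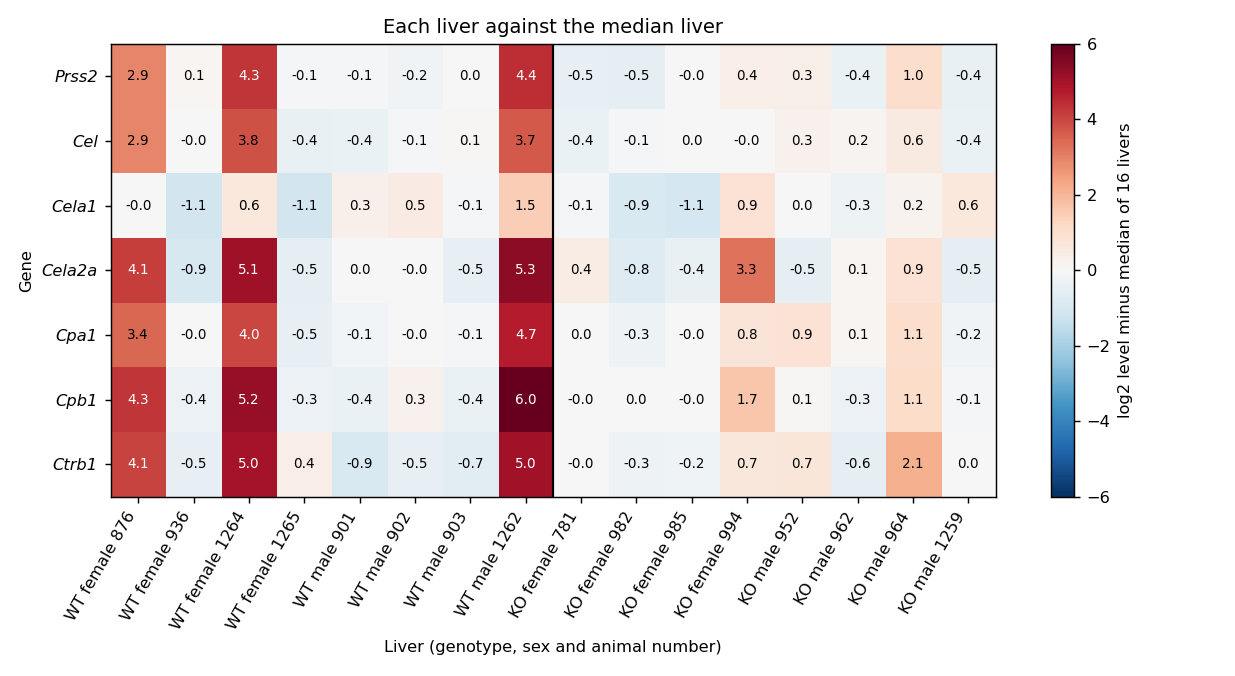
Level of each gene in each liver minus the median of the 16 livers (log2; red above, blue below), WT livers on the left of the black line and KO livers on the right. WT female 876, WT female 1264 and WT male 1262 are red for 6 of 7 genes, while KO female 994 and KO male 964 are raised for fewer genes and by less.

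Among the 17097 genes ranked by their SD over the 16 livers, Cela2a was at place 22, Cpb1 at 23, Ctrb1 at 26, Cpa1 at 47, Prss2 at 48 and Cel at 56. Cela1 was at place 351. In the other organs the SD of each of the 7 genes was at most 0.24. Over the livers, the 15 pairs of genes without Cela1 correlated with r between 0.89 and 0.99 (16 livers, median 0.97), and the 6 pairs with Cela1 with r between 0.48 and 0.66. In the other organs the median r of the 15 pairs was between 0.08 and 0.23. These values describe points that share a library, and 3 livers set most of the spread.

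The steps between the 3 high livers were not equal over the genes. The liver of WT male 1262 exceeded that of WT female 876 by 0.74 (Cel) to 1.70 (Cpb1) log2 units over the 6 genes. It differed from WT female 1264 by -0.14 (Cel) to 0.76 (Cpb1).

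The organs of the same 3 animals were examined next. In kidney, Prss2 was at 3.77 in WT female 876, 3.71 in WT male 1262 and 3.75 in WT female 1264, while all 16 kidneys spanned 3.66 to 4.02. In kidney, Ctrb1 was at 4.43, 4.09 and 4.29 in the same order, and in lung at 3.95, 3.85 and 3.78. Cpb1 was at 3.29, 3.30 and 3.28 in their hearts and at 3.08, 3.26 and 3.19 in their brains. For the 6 genes without Cela1, the high levels were measured in the liver library alone of each animal. Of the 30 other acinar genes, 2 lay over 1 log2 unit above the lung median in the lung of WT female 1264, where 0.17% of all genes did. They were Klk1 at 5.55 (at most 3.88 in the other 15 lungs) and Dnase1 at 4.35 (at most 3.99). Both are also among the genes that were high in every kidney, as given below. Over the other 15 lungs together, 3 values of the acinar list passed the same margin.

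Other genes of acinar cells were taken from a list of 39 names, of which 30 were measured. Over 1 log2 unit above the liver median stood 13 of them in WT male 1262 (0.31% of all genes), 12 in WT female 1264 (0.965%) and 9 in WT female 876 (0.602%). KO male 964 had 3 (0.398% of all genes), KO female 994 had 3 (7.77%), KO male 952 had 2 (0.866%), and the other 10 livers had 0. In KO female 994 the 3 were 10% of the list, near the share of all genes there. Amy2a5, a pancreatic amylase, was between 9.79 and 10.68 in the 3 high livers. In the remaining 13 it was between 2.87 and 8.23, the highest being KO female 994. Try5, a further trypsinogen, was between 8.44 and 10.07 in the 3 livers and between 2.96 and 5.70 in the rest, without overlap. Ctrl, a chymotrypsin-like protease, was between 7.55 and 8.96 in the 3 livers and between 3.70 and 5.37 in the rest, with KO male 964 the highest of these. Cela3b, an elastase, was between 7.45 and 8.90 against 3.86 to 5.21, the highest of the rest being KO female 994. Of the 4 genes the groups came closest for Amy2a5, and they overlapped for none. These 4 were named for the widest range over the livers, whose upper end lay in the 3 high livers, so this is a description. Further genes of the list, such as Prss1 and Dnase1, overlapped. Reg1, a secreted protein of acinar cells that was picked out after its values were seen, was between 6.10 and 7.53 in the 3 livers and reached 6.36 in that of KO male 952, so for this gene the groups overlapped.

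Of all 17097 genes, 15 lay over 1 log2 unit above the liver median in each of the livers 876, 1262 and 1264 (0.0877%). They were 6 of the 7 enzyme genes, all but Cela1, and 9 of the acinar list: Amy2a5, Cela3b, Clps, Ctrl, Pnliprp1, Reg1, Rnase1, Sycn and Try5. No gene outside these 2 lists was among them. The 3 livers were picked by the enzyme genes, and both lists were chosen with earlier results of these data known. For all 15 genes this is therefore a description. At a margin of 2 log2 units there were 14 genes (0.0819%), the same without Sycn. The 10 genes whose levels over the 16 livers were most like the mean of the enzyme genes were Try5, Pnliprp1, Ctrl, Cela3b, Clps, Rnase1, Amy2a5, Sycn, Klk1 and Zg16, with r from 0.995 down to 0.899 among 1651 genes compared.

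The transcription factors of acinar cells were read in the same livers. Ptf1a was between 3.28 and 3.79 in the 3 high livers and between 3.13 and 3.98 in the other 13. Rbpjl, its partner in acinar cells, was between 3.64 and 4.10 against 3.64 to 4.18. Both lay near background, so nothing can be read from their order. Nr5a2, which hepatocytes also express, was between 8.88 and 9.29 against 8.73 to 9.47. Bhlha15, which shapes the secretory cell, was between 3.53 and 4.32 against 3.40 to 6.27. Its highest levels were in KO livers, at 6.27 in KO male 952, 5.71 in KO male 964 and 4.91 in KO male 962, of which KO male 964 is the liver with 4 of the 7 enzyme genes over the margin. The groups overlapped for each of these 4 genes.

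Lists of markers for other tissues near the liver were read in the same way. Of the islet list 17 of 22 genes were measured. In the liver of WT female 876, 2 of the 17 lay over 1 log2 unit above the liver median, where 0.602% of all genes did, and in the other 15 livers 0 of 17 did. In the liver of WT female 876, Ins2, which encodes insulin, was at 9.08 and Gcg, which encodes glucagon, at 4.64. In the other 15 livers Ins2 reached at most 4.99 and Gcg at most 3.65. Sst, which encodes somatostatin, was at 4.66 in WT female 876 and reached 5.19 in another liver. Ins2 was at 4.31 in WT male 1262 and 4.21 in WT female 1264, within the range of the other livers. The mean of the duct epithelium list (6 of 8 measured) was 4.11 to 4.18 in the 3 livers and 3.75 to 4.38 in the other 13. That of the small intestine list (10 of 14) was 5.03 to 5.21 against 4.86 to 5.56, and that of the stomach list (10 of 12) was 4.24 to 4.42 against 4.15 to 4.49. The list of B cells and spleen (8 of 10) had 4.14 to 4.32 against 3.97 to 4.59, and adipose tissue (4 of 8) 4.88 to 5.46 against 4.53 to 5.64. The liver marker list (9 of 10) had 12.94 to 13.05 against 12.76 to 13.13. For the islet list the mean was 3.49 to 3.99 against 3.41 to 3.62. All of these means overlapped, while the mean of the other acinar genes was 5.10 to 5.69 in the 3 livers and 3.78 to 4.33 in the rest. Single genes can vary under such a mean, as Tff3 of the small intestine list spanned 4.04 to 10.57 over all livers. RNA from pancreas in a liver sample and transcription of these genes by liver cells cannot be told apart in such arrays, nor can more cells of a type from more RNA per cell.

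**Figure D3:**
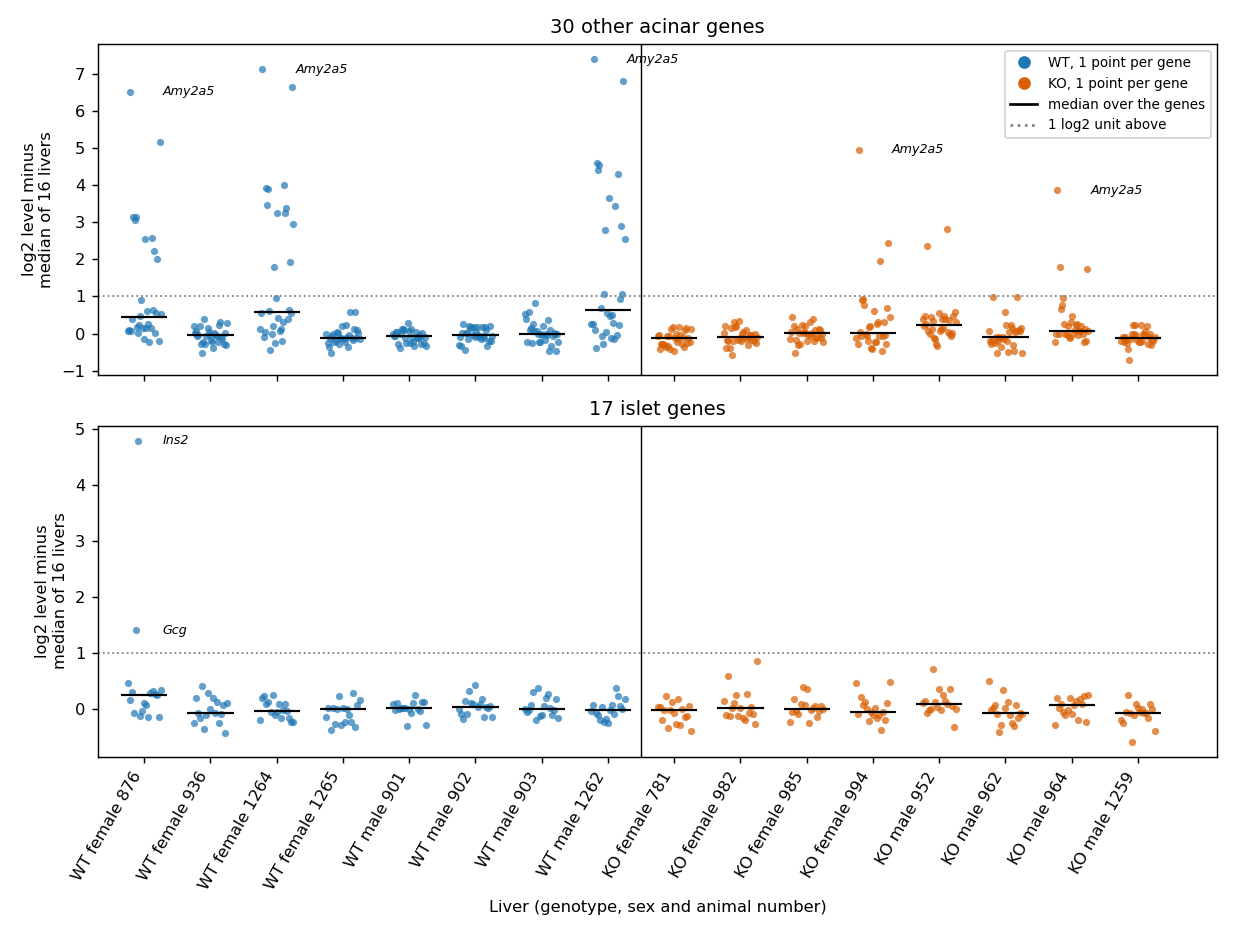
Level minus the median of the 16 livers (log2) for the 30 other acinar genes (top) and the 17 islet genes (bottom) in each liver, 1 point per gene, WT in blue and KO in orange, with a black line at the median over the genes and a dotted line at 1 log2 unit. WT female 876, WT female 1264 and WT male 1262 have 9 to 13 acinar genes above the dotted line, and WT female 876 is the library with Ins2 and Gcg above it.

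The comparison of genotypes in the liver asks whether the loss of the esterase went with a change of these genes. All 7 had lower means in KO, with a median difference of -1.18 against -0.0044 over all genes. A gene was called where its adjusted p was under 0.05. By limma with Benjamini-Hochberg adjustment 0 of the 7 were called (adjusted p = 0.994 for each), and none of the 7 had an unadjusted p under 0.05. Of 17097 genes 1 was called (0.00585%) and 573 had an unadjusted p under 0.05. KO and WT livers overlapped for all 7 genes, where every KO liver lay above every WT liver for 0.00585% of all genes and every WT liver above every KO liver for 0.0117%. Prss2 was at 4.19 ± 0.56 (SD, n = 8) in KO and 5.60 ± 2.09 (SD, n = 8) in WT, a difference of -1.42 (SE 0.71). Cpb1 had the most negative difference, at 3.78 ± 0.69 in KO and 5.27 ± 2.85 in WT, a difference of -1.49 (SE 0.97). For the other genes the difference was -1.27 (SE 1.01) for Cela2a, -1.18 (SE 0.90) for Ctrb1, -1.18 (SE 0.63) for Cel, -1.14 (SE 0.75) for Cpa1 and -0.14 (SE 0.32) for Cela1. Ranked from the most negative difference among 17097 genes, Cpb1 was at place 4, Prss2 at 7, Cela2a at 9, Ctrb1 at 11, Cel at 13 and Cpa1 at 14. The test, which sets a difference against its SE, called none of these differences.

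The direction rested on the 3 high livers, all of them WT. With livers 876, 1262 and 1264 left out, the KO minus WT difference was 0.048 for Prss2, 0.20 for Cel, 0.36 for Cela1, 0.75 for Cela2a, 0.46 for Cpa1, 0.55 for Cpb1 and 0.67 for Ctrb1, above 0 for all 7 (adjusted p = 0.999 for each, limma with Benjamini-Hochberg adjustment). In that set the 5 remaining WT livers and the 8 KO livers overlapped for every gene. The highest liver left was KO male 964 for Prss2, Cel, Cpa1 and Ctrb1, and KO female 994 for Cela1, Cela2a and Cpb1. No fit that also left out these KO livers was run, so the sign there may rest on them. With all WT livers kept and KO livers 952 and 994 left out, the differences were -1.54 for Prss2, -1.22 for Cel, -0.32 for Cela1, -1.63 for Cela2a, -1.31 for Cpa1, -1.68 for Cpb1 and -1.32 for Ctrb1. Leaving out WT male 1262 or WT female 1264 alone turned Cela1 to 0.016 and 0.031. Of the 30 other acinar genes, 0 were called in the liver, 26 had a lower mean in KO, and the median was -0.16.

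**Figure D4:**
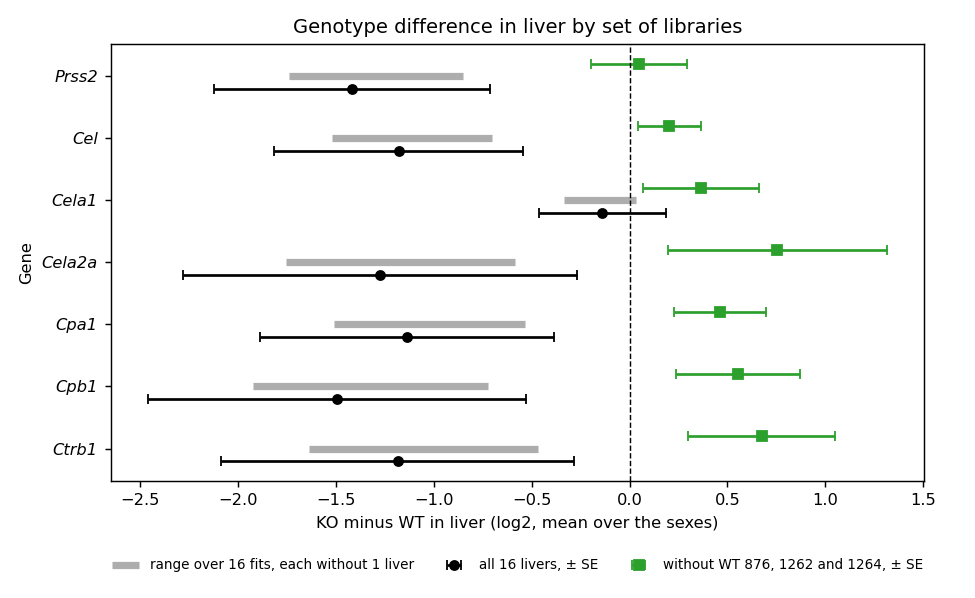
KO minus WT difference in liver (log2, mean over the sexes) for each gene, with black points for all 16 livers and green squares without WT female 876, WT male 1262 and WT female 1264 (bars, SE), and grey bars for the range over 16 fits that each leave out 1 liver. The black points lie below 0 for all 7 genes and the green squares above 0 for all 7.

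In the other organs none of the 7 genes was called between the genotypes. The 7 differences ran from -0.19 (Cpa1) to 0.18 (Cela1) in brain, with 0 of 7 called and 0 of 17097 genes called, while 1021 genes had an unadjusted p under 0.05 there. They ran from -0.14 (Ctrb1) to 0.07 (Prss2) in heart (0 of 7, 0.00585% of all genes), from -0.06 (Prss2) to 0.10 (Cela1) in kidney (0 of 7, 0% of all genes) and from -0.11 (Ctrb1) to 0.04 (Cpb1) in lung (0 of 7, 0.00585%). The genotype difference itself differed between the sexes for 0 of 7 genes in each organ by the interaction test, where 0% of all genes were called.

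Both sexes held high livers, 1 male and 2 females. In the liver 0 of 7 genes were called for male against female (4.96% of all genes). Cela1 was at 9.54 ± 0.55 (SD, n = 8) in males and 8.85 ± 0.81 (SD, n = 8) in females, a difference of 0.69 (SE 0.32), which limma did not call (Benjamini-Hochberg adjusted p = 0.265). With the animal as a block over all tissues it was 0.69 with a Benjamini-Hochberg adjusted p of 0.0033 by limma. The block fit shares its variance over all tissues, while the SD of Cela1 was 0.76 in liver and 0.19 in kidney. Its adjusted p-values are therefore not set against the spread of the organ alone. In kidney 1 of 7 was called (21.6% of all genes), which was Cela1, with a male minus female difference of -0.26 (SE 0.07) and a Benjamini-Hochberg adjusted p of 0.0174 by limma. Its kidney levels were 10.87 ± 0.12 (SD, n = 8) in males, from 10.66 to 11.03, and 11.13 ± 0.16 (SD, n = 8) in females, from 10.82 to 11.30, so the sexes overlapped. That call was not kept with median centring (-0.15, adjusted p = 0.0822), which moved the median difference of all genes by 0.11, or with the animal block (-0.25, adjusted p = 0.395). In brain (0.0994%), heart (0.269%) and lung (0.0526% of all genes) 0 of 7 were called.

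Cela1 was the member with a level of its own in 2 organs. The order of its means was kidney at 11.00 ± 0.19, liver at 9.19 ± 0.76, brain at 5.02 ± 0.22, lung at 4.73 ± 0.24 and heart at 4.36 ± 0.19 (SD, n = 16 each). The steps in this order were 1.81 (SE 0.13), 4.17 (SE 0.13), 0.29 (SE 0.13) and 0.37 (SE 0.13), and limma called each. Each SE comes from 1 variance shared over the organs, though the SDs of the organs differed. The lower steps depended on the scaling and on the arrays used. Lung over heart had a Benjamini-Hochberg adjusted p of 0.0069 by limma. With quantile normalisation of all arrays that step was 0.10 (adjusted p = 0.437), with median centring 0.041 (adjusted p = 0.755) and in KO arrays alone 0.33 (adjusted p = 0.0805), so the call was not kept. Brain over lung had an adjusted p of 0.0384, was 0.19 in WT arrays alone (adjusted p = 0.387), and was not kept in 9 of 80 fits without 1 array, where the adjusted p reached 0.0677. Kidney levels ran from 10.66 to 11.30 in all 16 animals, above every brain (a pattern of 23.1% of all genes), every heart (15.3%) and every lung (15.9%). Kidney and liver overlapped only through the liver of WT male 1262 at 10.67, so that Cela1 was not among the 12.9% of genes with every kidney above every liver. Of the 30 other acinar genes, 3 were higher in every kidney than in any array of another organ, a pattern of 3.21% of all genes that Cela1 did not share. They were Klk1 (tissue kallikrein), Dnase1 and Spink1 (a trypsin inhibitor), with kidney means of 13.21 ± 0.13, 12.32 ± 0.30 and 12.08 ± 0.21 (SD, n = 16 each).

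The other 6 genes were low in brain, heart, kidney and lung in every animal. Prss2 had tissue medians of 3.48 in brain, 3.99 in heart, 3.77 in kidney and 3.48 in lung, and its highest array outside the liver was the heart of WT female 1265 at 4.51. Ctrb1 had medians of 3.99, 4.05, 4.26 and 3.86 in the same order, with a highest array of 4.59 in the kidney of KO male 1259. Cela2a had medians of 3.23, 3.65, 3.33 and 3.15, and the heart of WT male 901 was its highest at 4.28. These arrays lay near the array median, and their spread within a tissue was small.

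Cpa1 had medians of 3.39, 3.76, 3.58 and 3.42 in brain, heart, kidney and lung, and reached 4.03 in the heart of WT male 1262. Cpb1 had medians of 3.13, 3.22, 3.20 and 3.58, and reached 4.14 in the lung of KO female 994. Cel had medians of 3.33, 3.49, 3.43 and 3.27, and reached 3.93 in the heart of KO male 1259. The liver medians of these 3 genes were 3.85, 3.49 and 3.72, so a typical liver was close to the other organs.

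The same 6 genes had their highest mean in liver. The test over all 80 arrays called liver against the next organ for each, with differences of 0.83 (SE 0.25, adjusted p = 0.0027) for Prss2 against heart, 0.83 (SE 0.23) for Cel against heart and 1.88 (SE 0.35) for Cela2a against heart. They were 0.96 (SE 0.27) for Cpa1 against heart, 0.92 (SE 0.34, adjusted p = 0.0106) for Cpb1 against lung and 1.56 (SE 0.32) for Ctrb1 against kidney. This fit shares 1 variance per gene over all organs. Yet the SD of Prss2 was 1.65 in liver and 0.24 in heart, and that of Cpb1 was 2.15 in liver and 0.24 in lung. These adjusted p-values are therefore not set against the spread between livers alone. Below the liver, no step between neighbours in the order was called for these 6 genes. Their SEs hold the spread of the livers as well, so a missing call does not show equal levels. Of the 7 genes 7 were called between liver and each of the other organs, where the calls over all genes were 85.8% against brain, 71.2% against heart, 73.5% against kidney and 85.9% against lung. Between the other organs 1 or 2 of 7 were called, with 79.7% of all genes for brain against heart, 74.5% for brain against kidney, 73.8% for brain against lung, 66.7% for heart against kidney, 79.1% for heart against lung and 72.8% for kidney against lung. Counts of members called here changed when the high livers were left out, as given in the last section.

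Without the 3 high livers, 4 of these 6 calls were not kept. The liver difference was 0.10 for Prss2 (adjusted p = 0.371), 0.13 for Cel (adjusted p = 0.069) and 0.16 for Cpa1 (adjusted p = 0.0961), each against heart, and -0.10 for Cpb1 against lung (adjusted p = 0.354). Cela2a kept 0.86 (adjusted p = 1.39e-05) and Ctrb1 0.63 (adjusted p = 6.07e-06, limma with Benjamini-Hochberg adjustment). These adjusted p-values too rest on a variance shared over the organs. Over the 13 remaining livers the SD was 1.09 for Cela2a and 0.81 for Ctrb1. In the 13 remaining livers Cela2a had a median of 4.22 and Ctrb1 of 4.71. KO female 994, at 7.91 for Cela2a, and KO male 964, at 7.09 for Ctrb1, were among them. No fit that also left these KO livers out was run. Every liver, high or not, lay above every brain and every lung for Cela1 and Cela2a (patterns of 18.5% and 14.2% of all genes), above every heart for Cela1 (11.8%) and above every kidney for Cela2a (7.48%).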

How the data were processed

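The submitters' processing notes name Affymetrix Expression Console, RMA and Partek, without versions. The authors deposited 1 normalised log2 value per probe set and array, and joint normalisation of the tissues is not given in the sources used here. Of 45141 probe sets, 104 were controls, left out here, and 28898 named 1 gene. Each gene was read from its probe set with the highest mean over the 80 arrays, which gave 17097 genes. The table held 0 pairs of identical arrays. The members and lists were chosen with earlier results of these data known.

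Each tissue was fitted with limma 3.58.1 in R 4.3.3 (lmFit and eBayes on group means of genotype by sex), and tissues were compared in 1 fit of 80 arrays. P-values were adjusted over all 17097 genes (Benjamini-Hochberg, threshold 0.05). Simulated normal values with known KO minus WT differences were run through the fits within a tissue. That simulation had no outlying livers, and the fit of 80 arrays was not simulated, so it does not bear on either. The text names the members, any library with a member over 1 log2 unit above its tissue median, up to 4 genes per list by their range over the livers, and the 10 genes most like the member mean in liver. Genes high in livers 876, 1262 and 1264 alike, genes high in every kidney or in the lung of WT female 1264, Reg1 and the transcription factors were singled out after their values were seen. Promoter windows and coordinates came from RefSeq (GRCm38.p6).

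A number in a title, with its genotype and sex, was taken as 1 animal, so the arrays of a group are separate mice, and 16 mice gave several organs. Over the 132 pairs of arrays of the same mouse the median correlation of deviations was 0.096, against -0.0032 over 2428 other pairs, and the random block for the animal had a correlation of 0.0736. The animal number pairs organs, not genotypes. The other settings were averaged probe sets, bright genes, quantile normalisation, median centring, a robust trended prior, unmoderated variances, array weights, the animal number range as a block, 1 sex or genotype at a time, and each array left out in turn. Leaving out livers 876, 1262 and 1264 together, and livers 952 and 994 together, was chosen after seeing the data. The number of arrays limits the precision.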

Additional observations from a re-analysis of the deposited data

Results flagged for a closer look

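Among 140 groups of 4 arrays (7 genes in 20 groups), 13 held an array set apart from the other 3 by most of the group's range, 9.29% of the groups, and 8 of the 13 were in liver. Chance flags about 1 in 20 groups. In the WT male livers, animal 1262 was set apart for 6 genes, at 8.60 for Prss2, 7.40 for Cel, 10.00 for Cela2a, 8.56 for Cpa1, 9.48 for Cpb1 and 10.00 for Ctrb1. The WT female livers held 2 high animals and 2 low ones, so no single array was set apart there. In the KO female livers, Cpb1 was high in animal 994 at 5.14 and Cel was low in animal 781 at 3.31. Outside the liver the arrays set apart differed little from their groups. They were Prss2 in the brain of KO male 952 at 3.89 and in the kidney of WT female 936 at 3.96, Cela2a in the heart of KO female 985 at 3.82, and Cpa1 in the lung of KO female 1897 at 3.34 and in the brain of WT female 876 at 3.50.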

How the results depend on the processing

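For KO against WT and for the interaction of genotype with sex, 0 of 7 genes were called in every organ under every setting run, but bright genes alone left 0 of the 7 to test in brain, heart and lung and 1 in kidney, so that setting gave no count in those 3 organs. With livers 876, 1262 and 1264 left out together, the KO minus WT difference in liver was 0.048 for Prss2, 0.20 for Cel, 0.36 for Cela1, 0.75 for Cela2a, 0.46 for Cpa1, 0.55 for Cpb1 and 0.67 for Ctrb1, and liver minus lung for Cpb1 was -0.10. Cela1 in liver was also above 0 with the animal number range as a block (0.035), in females alone (0.12) and without WT male 1262 (0.016) or WT female 1264 (0.031). Over the fits without 1 liver it lay between -0.34 and 0.031. The fit over all tissues with the animal as a block gave -1.42 for Prss2 in liver (adjusted p = 0.0845, limma with Benjamini-Hochberg adjustment). It called 21 genes for KO against WT there. It changed the count of members called to 0 for male against female in kidney and to 1 in liver, and changed no other such count. Within an organ the genotypes and the sexes are different mice, so these contrasts are not paired. That fit also shares its variance over all tissues, and its block correlation was 0.0736. Its changes are therefore not read as an effect of pairing. For male against female in kidney (1 of 7), the count was 3 with median centring, 0 in WT alone, 0 in KO alone, and 1 to 2 over the fits without 1 array. Median centring moved the median difference of all genes there by 0.11 and turned 1673 genes called higher and 2028 lower into 4814 and 1408. Between organs it moved that median by up to 0.63 (liver minus lung). For brain against heart (2 of 7) it was 1 with an intensity trend, 1 with no moderation, 1 in WT arrays alone, 1 without livers 952 and 994, 1 to 2 without 1 array, and 5 without the 3 high livers. For heart against lung (2 of 7) it was 1 with quantile normalisation, 4 with median centring, 1 in WT arrays alone and 6 without the 3 high livers. Without those livers it was 3 for brain against kidney, 2 for brain against lung, 5 for heart against kidney, 4 for heart against liver and 5 for kidney against lung. Brain against lung (1 of 7) was 0 in WT arrays alone, 2 in KO arrays alone and 0 to 1 without 1 array, and kidney against lung was 4 in KO arrays alone. Leaving out livers does not alter the differences between the other organs, and for Cela1 they stayed at 0.29 (brain over lung) and 0.37 (lung over heart). It alters the variance that those organs share with the livers. The causes of these changes were not tested further. The low signal of 6 of the 7 genes outside the 3 livers limits what can be read from differences there.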
